A study of Mus musculus with 59 samples.

Results

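Transcripts of 9 ubiquitin ligases tied to muscle atrophy were followed in mouse muscle: *Fbxo32*, *Fbxo30*, *Fbxo31* and *Fbxo40*, which encode F-box proteins, *Trim63*, *Trim55* and *Trim54*, which encode the MuRF family, and *Nedd4* and *Traf6*. They were chosen by symbol from the 47643 genes of the expression table, and all 9 were found. Muscles came from female NCI Ath/nude mice of 4 months, an immunodeficient strain that accepts human tumours, and every mouse carried a human melanoma xenograft. The cachectic (CAC) xenograft causes wasting and the non-cachectic (NONCAC) xenograft does not. Each arm rests on 1 xenograft, so wasting and the identity of the tumour cannot be told apart, and no tumour-free mice were included. Diaphragms formed 4 groups: 10 CAC mice injected with recombinant Fibcd1 (rFibcd1), a secreted protein under test as a protector of muscle fibers, 10 CAC mice without it (mock), 10 NONCAC mice given rFibcd1, and 9 NONCAC mock mice. The tibialis anterior (TA), a fast limb muscle, and the soleus (SOL), a slow one, each gave 5 CAC and 5 NONCAC samples, whose labels name no injection. Group sizes are those of the labels, and the study's own text gives smaller CAC diaphragm groups. Values are TPM, transcript abundances corrected for transcript length that sum to the same total in every library, and they keep no sequencing depth.

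The ubiquitin-proteasome system tags proteins with ubiquitin and degrades them, and the E3 ligase picks the protein to be tagged. F-box proteins are the substrate receptors of SCF complexes, MuRF proteins are RING ligases of the sarcomere, Nedd4 is a HECT ligase, and Traf6 is a RING ligase of cytokine signaling. Atrogin-1 (*Fbxo32*) and MuRF1 (*Trim63*) are the classical markers of muscle atrophy, and their transcription is known to respond to FoxO factors, glucocorticoids and inflammatory signals.

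In the mouse genome (GRCm38, GENCODE annotation) *Fbxo32* lies on the minus strand at chr15:58175879-58214932, *Trim63* on the plus strand at chr4:134315120-134329629 and *Fbxo31* on the minus strand at chr8:121549440-121578806. Exons of *Fbxo32* overlap the antisense gene *Gm15943*, which reached at most 0.7 TPM in any library, and exons of *Trim54* (chr5:31116712-31137630, plus strand) overlap the antisense gene *Gm15469*, which reached at most 0.118 TPM. RefSeq promoter windows of 300 bases, from 250 before to 50 after the start, were at hand for 7 of the 9 genes (GRCm38.p6). The upstream 250 bases are shown for *Trim63* and *Fbxo31*, both called higher in CAC mice in all 3 muscles below. Capitals mark motif matches.
Trim63, chr4:134314870-134315119, plus strand: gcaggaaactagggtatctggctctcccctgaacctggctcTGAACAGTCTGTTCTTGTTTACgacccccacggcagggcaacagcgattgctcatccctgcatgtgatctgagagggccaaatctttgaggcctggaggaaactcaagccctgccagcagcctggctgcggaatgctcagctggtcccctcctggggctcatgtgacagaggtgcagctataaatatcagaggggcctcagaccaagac
Fbxo31, chr8:121578807-121579056, minus strand: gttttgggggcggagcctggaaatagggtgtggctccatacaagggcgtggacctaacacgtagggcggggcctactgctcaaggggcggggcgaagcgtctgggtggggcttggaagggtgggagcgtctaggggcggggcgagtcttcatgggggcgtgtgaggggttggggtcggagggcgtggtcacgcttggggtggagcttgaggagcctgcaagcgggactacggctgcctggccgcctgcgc

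The capitals in *Trim63* are a glucocorticoid response element with 1 mismatch, starting at position -209 relative to the start site, directly followed without overlap by an exact FoxO motif (GTAAACA, read on the other strand) starting at position -194. Of 32851 mouse promoter windows of this length, 3.65% held that FoxO motif and 0.164% held a glucocorticoid element with at most 1 mismatch, counting both strands. Among the 7 genes with a window, *Trim63* was the gene with either of these motifs. *Fbxo31* held none of the motifs searched, which also included STAT (TTCNNNGAA, in 8.3% of windows), C/EBP (TTGCNNAA, 10.8%) and NF-kB (20.7%). These matches describe letters in a window and say nothing of binding.

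The muscles carried the markers of their labels. *Myh4*, the fastest myosin, was 7590 to 14500 TPM in TA, and *Myh7*, the slow myosin, was 4290 to 7890 TPM in SOL and at most 4.83 TPM in TA. One CAC soleus library (number 7 in the table's column names) stood apart with 4990 TPM of *Myh4*, against at most 69.8 TPM in the other CAC soleus libraries and 24.9 TPM in the NONCAC ones. Melanocyte markers summed to at most 2.4 TPM in any library. Markers of other cells moved with the melanoma. The 6 neutrophil markers summed to 7.28 to 51.4 TPM in CAC and 1.13 to 3.96 TPM in NONCAC TA, to 8.01 to 32 and 3.06 to 5.06 TPM in SOL, and to 10.8 to 57.2 and 3.95 to 23.9 TPM in mock diaphragm, with 1 of them at 0 throughout both TA groups and CAC SOL. The 5 macrophage markers summed to 7.33 to 51 against 4.65 to 8.69 TPM in TA, 15.7 to 108 against 16.3 to 25.8 TPM in SOL, and 43 to 164 against 32.2 to 67 TPM in mock diaphragm. In TA the 5 B cell markers were lower in every CAC library (4.23 to 29.2 against 42.4 to 199 TPM), and in SOL the 5 fibroblast markers had a median of 271 TPM in CAC and 658 TPM in NONCAC libraries. In TA the fibroblast median was 339 TPM in CAC and 211 TPM in NONCAC libraries, and that of the 5 endothelial markers 139 and 95 TPM. The share of TPM held by mitochondrial genes was 24.1 to 46.4% in CAC libraries and 39 to 51.9% in NONCAC ones, and a pseudogene transcript, *Pcna-ps2*, split the libraries into those above and below 2 TPM. In TA and SOL all 10 CAC libraries were above and all 10 NONCAC libraries below this level, so that the split and the melanoma cannot be told apart there. In the diaphragm 9 of 10 CAC mock, 8 of 10 CAC rFibcd1, 3 of 9 NONCAC mock and 6 of 10 NONCAC rFibcd1 libraries were above it. The part of these properties in the results below was not tested except where a value is given. In bulk muscle, fewer cells of a type and less RNA per cell cannot be told apart.

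**Figure D1:**
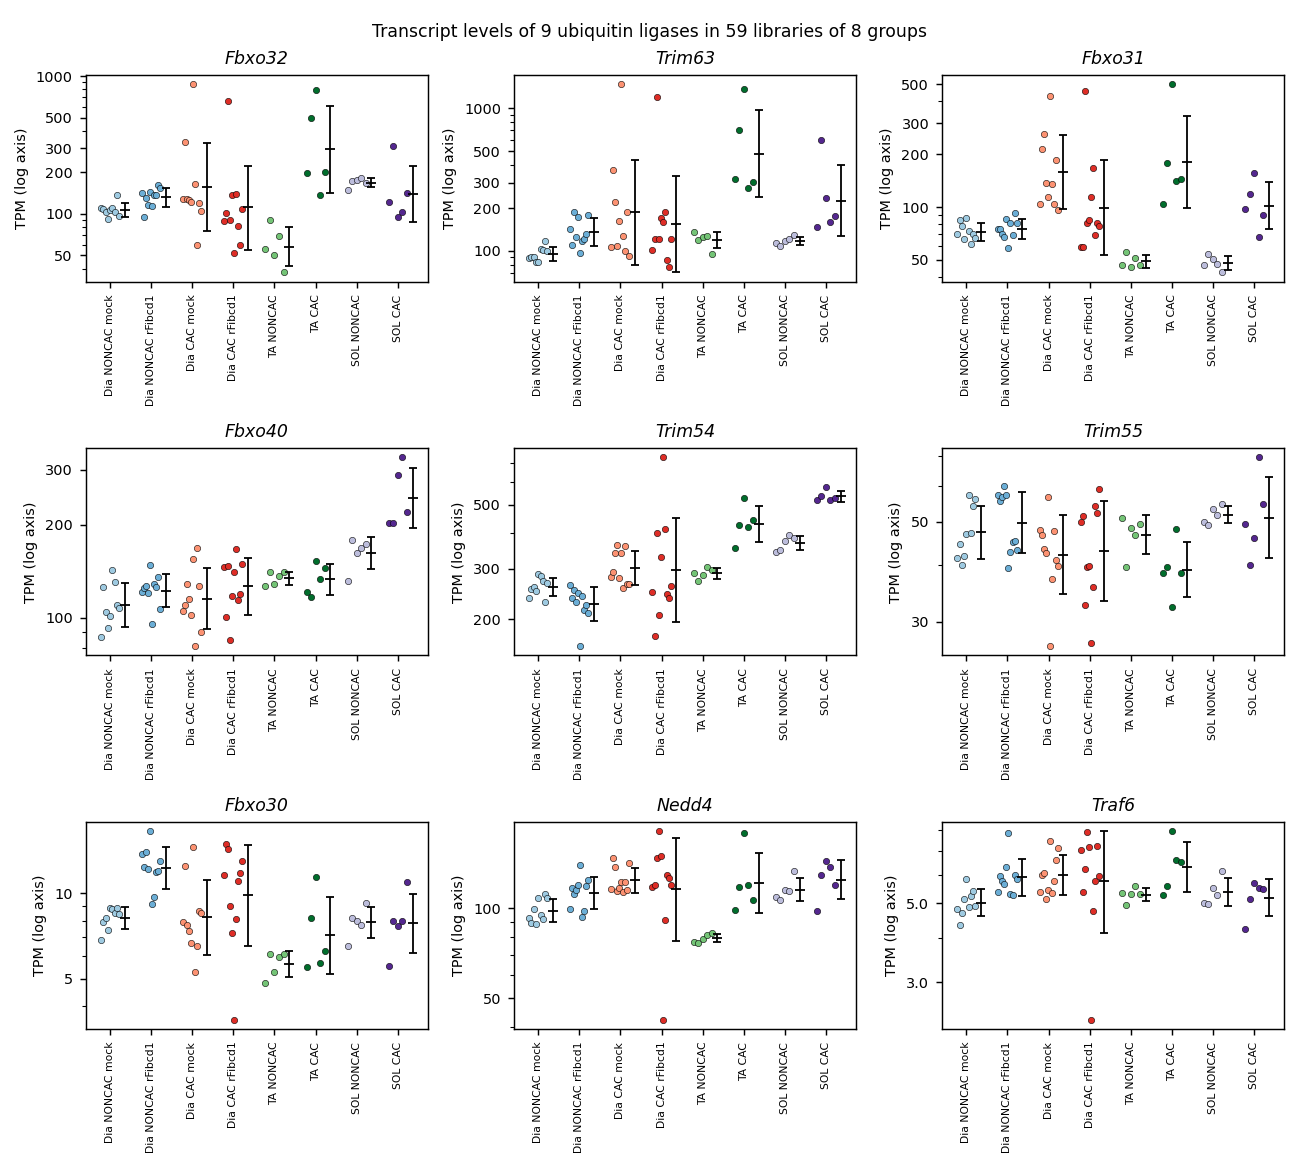
Level of each of the 9 ligases in TPM (log axis) in the 59 libraries of 8 groups. Points are libraries, and the bar beside each group is the mean ± SD of log2(TPM + 1), drawn back on the TPM scale. *Fbxo32*, *Trim63* and *Fbxo31* reach 876.7, 1481 and 502.3 TPM in single libraries of the CAC groups.

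In the TA, *Fbxo32*, *Trim63* and *Fbxo31* were each higher in every mouse with the cachectic melanoma than in any with the other, with group means of 365, 596 and 214 TPM against 60.5, 121 and 49.2 TPM. *Trim54* and *Nedd4* rose by less, and *Fbxo30*, *Fbxo40*, *Trim55* and *Traf6* did not pass the test. *Fbxo32* read 199.8, 497.6, 788.8, 137.5 and 201.0 TPM in the CAC libraries and 55.6, 89.9, 50.73, 68.84 and 37.61 TPM in the NONCAC libraries. The lowest CAC library was above the highest NONCAC library, and the 2 highest CAC libraries stood well above the other 3. The difference was 2.32 on the log2(TPM + 1) scale (SE 0.421, n = 5 and 5, limma adjusted p = 0.00197, adjusted by Benjamini-Hochberg over all genes tested, as below).

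*Trim63* read 319.1, 701.6, 1376, 276.9 and 303.5 TPM in CAC TA and 135.9, 120.2, 124.3, 127.1 and 95.94 TPM in NONCAC TA, again without overlap. Its log2 difference was 2.00 (SE 0.376, limma adjusted p = 0.00235). *Fbxo31*, an F-box gene, rose from 45.66 to 55.53 TPM in the NONCAC libraries to 103.9, 178.2, 502.3, 141.2 and 144.2 TPM in the CAC libraries. Its log2 difference was 1.86 (SE 0.326, limma adjusted p = 0.00167). The library numbered 8 was the highest for all 3 genes.

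*Trim54*, MuRF3, a partner of microtubules and the Z-disc, was 271.7 to 303.8 TPM in NONCAC TA and 354.8 to 528.1 TPM in CAC TA, a log2 difference of 0.57 (SE 0.108, limma adjusted p = 0.00244). *Nedd4* was 76.8 to 82.47 TPM against 98.93 to 178.0 TPM, a log2 difference of 0.61 (SE 0.142, limma adjusted p = 0.00599). Groups of these 5 genes did not overlap. Of the 9 members 5 were called, all higher, where 60.2% of 11105 genes were called and 56.4% were called higher. Groups failed to overlap for 51.7% of all genes. The median log2 difference was 0.57 over the members and 0.41 over all genes, so the shares alone do not set the members apart.

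*Fbxo40*, a muscle F-box gene that targets the insulin receptor substrate, differed by -0.01 (limma 95% interval -0.23 to 0.20), and *Trim55*, MuRF2, by -0.25 (-0.51 to 0.01). *Fbxo30*, known as MUSA1, differed by 0.29 (-0.08 to 0.67) and *Traf6* by 0.22 (-0.03 to 0.48). Median-ratio scaling divides each library by its median ratio to the mean over genes. It removes a shift shared by most genes, whether real or not, and brings calls toward an even split by construction. All-gene medians and shares under this scaling, here and below, therefore cannot show whether a rise over all genes is real. With it the median over all genes fell from 0.41 to 0.02 and the share of calls that were higher from 93.7 to 51.5%. *Fbxo32*, *Trim63* and *Fbxo31* kept log2 differences of 1.86, 1.53 and 1.39 with limma adjusted p of 0.00457, 0.00457 and 0.00151. *Trim54* and *Nedd4* were no longer called (0.10 and 0.15), and *Fbxo40*, *Trim55* and *Traf6* were called lower (-0.48, -0.71 and -0.18). With the mitochondrial genes left out, *Trim54* (0.33) and *Nedd4* (0.37) stayed called at smaller values, and *Fbxo40* (-0.25) and *Trim55* (-0.49) were called lower.

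**Figure D2:**
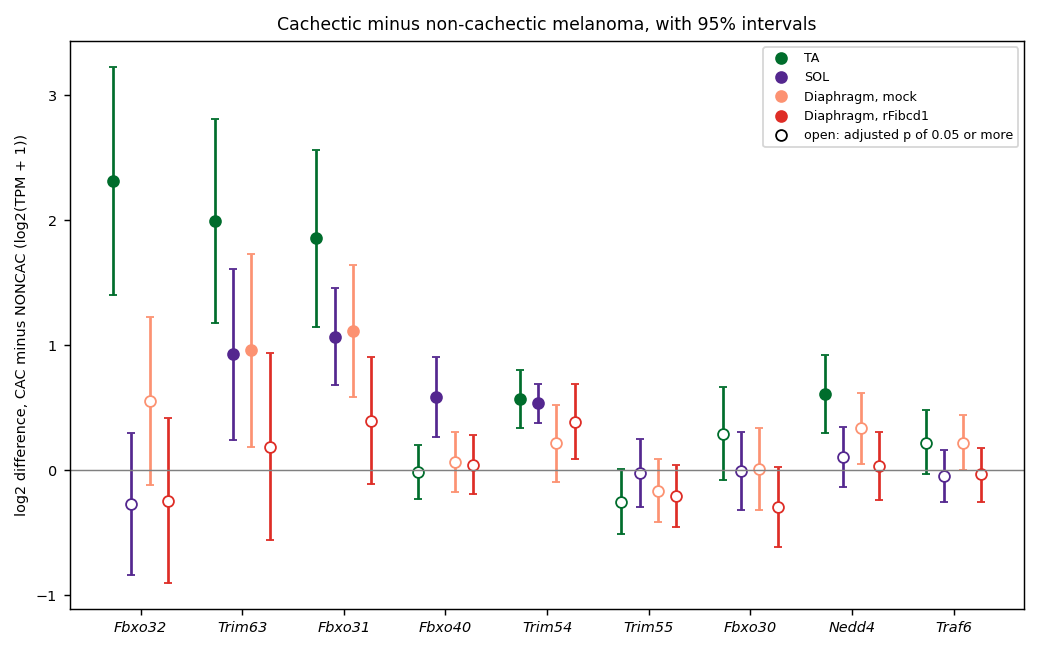
Difference of each ligase between CAC and NONCAC mice in TA, SOL and the diaphragm without and with rFibcd1, in log2(TPM + 1) units, with limma's 95% intervals; filled points have an adjusted p under 0.05. *Fbxo32* stands at 2.32 in TA and at -0.27 in SOL, while *Fbxo31* is filled in TA, SOL and mock diaphragm.

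In the SOL, *Fbxo31*, *Trim54*, *Fbxo40* and *Trim63* were higher in CAC mice and *Fbxo32* was not. *Fbxo31* read 97.62, 118.2, 155.6, 68.0 and 89.99 TPM in CAC and 42.44 to 54.11 TPM in NONCAC libraries, a log2 difference of 1.07 (SE 0.180, limma adjusted p = 0.00211). *Trim54* was 518.1 to 579.3 TPM in CAC and 344.3 to 393.8 TPM in NONCAC libraries, with a log2 difference of 0.54 (SE 0.0712, limma adjusted p = 0.000554). *Trim54* had the narrowest groups of the 4 genes.

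*Fbxo40* read 202.6, 202.5, 289.4, 329.1 and 220.3 TPM in CAC SOL against 131.4 to 178.4 TPM, a log2 difference of 0.59 (SE 0.147, limma adjusted p = 0.0137). *Trim63* read 146.9, 598.2, 233.6, 160.2 and 175.0 TPM against 107.9 to 128.7 TPM, a log2 difference of 0.93 (SE 0.314, limma adjusted p = 0.0493). The 4 called genes were those whose groups did not overlap, which held for 20.0% of all genes. Calls covered 25.1% of 11957 genes, and 17.5% were called higher. The median log2 difference was 0.11 over the members and 0.09 over all genes.

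*Fbxo32* went another way in SOL. Its NONCAC libraries read 149.7, 173.1, 175.2, 181.5 and 167.2 TPM, the most even group of this gene, and its CAC libraries read 121.7, 310.2, 95.64, 103.7 and 142.6 TPM. Thus 4 of 5 CAC libraries lay below every NONCAC library and 1, number 7, lay above all of them. The log2 difference was -0.27 (limma 95% interval -0.84 to 0.30, adjusted p = 0.479). Number 7 is the library with 4990 TPM of *Myh4*, and the part of that in its value was not tested. Without it, *Fbxo32* was lower by a log2 difference of -0.56 (limma adjusted p = 0.00917) and *Trim63* was higher by 0.58 (adjusted p = 0.0106). Across all 10 fits that left out 1 library, however, *Trim63* lost its call in 7, with adjusted p of 0.0106 to 0.1. The other 4 members had differences from -0.04 to 0.11. *Trim63* in SOL was no longer called under median-ratio scaling (0.82, limma adjusted p = 0.0884), where the share of all calls that were higher went from 70.0 to 49.7%. With the mitochondrial genes left out, *Trim63* (0.69, limma adjusted p = 0.122) and *Fbxo40* (0.35, adjusted p = 0.0714) were not called, *Trim54* was called at 0.30 and *Traf6* was called lower (-0.26, adjusted p = 0.0293).

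The difference between the muscles was tested as an interaction over the 39 mock diaphragm, TA and SOL libraries. The effect of the cachectic melanoma on *Fbxo32* was larger in TA than in SOL by 2.59 on the log2 scale (SE 0.621, limma adjusted p = 0.00459). *Nedd4* also had the larger effect in TA (0.50, SE 0.156, adjusted p = 0.0234) and *Fbxo40* the larger effect in SOL (-0.60, SE 0.217, adjusted p = 0.0456). These 3 calls stand where 20.4% of 13501 genes were called, 93.8% of them with the larger effect in TA, a share that median-ratio scaling brought to 47.6%. Under that scaling *Nedd4* was no longer called (0.15, limma adjusted p = 0.262), whereas *Fbxo32* (2.24, adjusted p = 0.0154) and *Fbxo40* (-0.95, adjusted p = 0.00166) were. Of 39 fits that left out 1 library, *Fbxo40* lost its call in 15 and *Nedd4* in 3, both of them without TA library 8, where *Fbxo32* was the 1 call left (2.23). For *Trim63* and *Fbxo31* the effects differed by 1.07 and 0.79 (adjusted p = 0.235 and 0.178). Numbers in the column names recur between muscles, and libraries with the same number deviated together between TA and SOL. With the number as a block, 6 members were called (42.0% of all genes), adding *Trim63* (1.07, limma adjusted p = 0.00758), *Fbxo31* (0.79, adjusted p = 0.00844) and *Traf6* (0.27, adjusted p = 0.0326).

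Between mock diaphragm and TA, the effect on *Fbxo32* was smaller in the diaphragm by -1.76 (SE 0.542, limma adjusted p = 0.0494), the 1 member called where 5.04% of genes were, 14.1% of them with the larger effect in the diaphragm and 50.4% under median-ratio scaling, where no member was called. The call was lost in 32 of 39 fits that left out 1 library, with the smallest difference without TA library 8 (-1.41, adjusted p = 0.175). In a fit with the number as a block, diaphragm libraries whose number recurs in no other muscle add nothing to the difference. CAC library 20 is among them. That fit called 4 members (16.2% of genes), each with the smaller effect in the diaphragm. They were *Fbxo32* (-1.76, limma adjusted p = 0.00648), *Fbxo31* (-0.84, adjusted p = 0.0147), *Trim63* (-1.03, adjusted p = 0.0224) and *Trim54* (-0.31, adjusted p = 0.0328). No member was called between diaphragm and SOL by limma, where 2.52% of genes were called. An unadjusted limma p under 0.05 was held by 2134 of 13501 genes and by 3 members, *Fbxo40* (-0.52), *Trim54* (-0.32) and *Traf6* (0.26). *Fbxo32* was at 0.82 (limma 95% interval -0.27 to 1.92).

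**Figure D3:**
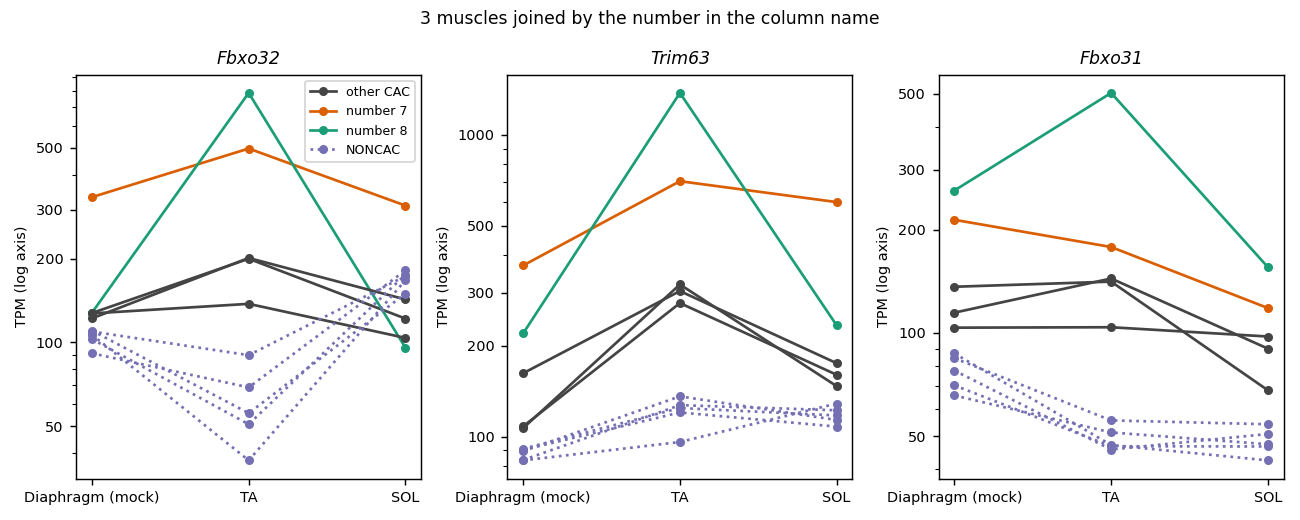
*Fbxo32*, *Trim63* and *Fbxo31* in TPM (log axis) in mock diaphragm, TA and SOL, joined where the column names share a number; solid lines are CAC and dotted lines NONCAC. Number 7 is high for *Fbxo32* in all 3 muscles (332.7, 497.6 and 310.2 TPM), whereas number 8 is highest in TA (788.8 TPM) and lowest of the CAC libraries in SOL (95.64 TPM).

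In mock diaphragm, *Fbxo31* and *Trim63* were higher in CAC mice and *Fbxo32* did not pass the test. *Fbxo31* was 61.63 to 87.15 TPM with a median of 70.3 TPM in the 9 NONCAC libraries and 96.65 to 431.2 TPM with a median of 135.5 TPM in the 10 CAC libraries. These groups did not overlap, and the log2 difference was 1.12 (SE 0.260, limma adjusted p = 0.00151). *Trim63* was 83.39 to 118.1 TPM (median 91.12) in NONCAC and 92.8 to 1481 TPM (median 144.4) in CAC libraries, a log2 difference of 0.96 (SE 0.379, limma adjusted p = 0.0474). Without the CAC library numbered 20, which held the 1481 TPM, it was 0.63 (limma adjusted p = 0.116), and the call was lost in 25 of the 39 fits that left out 1 library.

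*Fbxo32* in mock diaphragm was 91.3 to 137.1 TPM (median 106.5) in NONCAC and 59.48 to 876.7 TPM (median 127.2) in CAC libraries, which overlapped. Its log2 difference was 0.55 (limma 95% interval -0.12 to 1.23, adjusted p = 0.192), and 0.28 without library 20. *Nedd4* was 88.25 to 111.4 TPM in NONCAC and 113.4 to 146.8 TPM in CAC libraries without overlap, a log2 difference of 0.34 with a limma adjusted p of 0.0611. This shrank to 0.11 by median-ratio scaling, and to 0.10 both without mitochondrial genes and with the *Pcna-ps2* split as a term, while a fit of the 2 groups alone called it (adjusted p = 0.000493). The remaining 5 members had differences from -0.16 to 0.22. Of all genes 33.5% were called, 30.9% higher, and 4.36% had groups that did not overlap, as *Fbxo31* and *Nedd4* did. The median was 0.22 over the members and 0.20 over all 13426 genes. With median-ratio scaling the share of calls that were higher went from 92.0 to 46.0%, *Fbxo31* remained called (0.89, limma adjusted p = 0.0248) and *Trim63* was not (0.73, adjusted p = 0.202), nor was it with the mitochondrial genes left out (0.73, adjusted p = 0.209). *Trim55* was called lower under both (-0.39, limma adjusted p = 0.0224, and -0.40, adjusted p = 0.0488). With the *Pcna-ps2* split as a term *Fbxo31* was 1.18 (limma adjusted p = 0.00546) and *Trim63* 0.92 (adjusted p = 0.144). Among the libraries above 2 TPM of *Pcna-ps2* alone, 9 CAC and 3 NONCAC, neither was called: *Fbxo31* was 1.20 (adjusted p = 0.0951) and *Trim63* 0.86 (adjusted p = 0.398).

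Each CAC diaphragm group held 1 library with high values, and differences in spread were not tested. The coefficient of variation of *Fbxo32* was 112% in CAC mock and 119% in CAC rFibcd1 diaphragm, against 11.9% and 15.4% in the NONCAC groups. For *Trim63* it was 144% and 146% against 11.7% and 22.5%. Without number 20 of the mock group and number 3 of the rFibcd1 group, a choice made after seeing the data, it was 53.4% and 31.8% for *Fbxo32* and 54.1% and 29.8% for *Trim63*. The remaining CAC rFibcd1 libraries had 77.38 to 188.0 TPM of *Trim63*, against 96.54 to 186.9 TPM in NONCAC rFibcd1. Each of these 2 libraries lay far above the rest of its group for *Fbxo32*, *Trim63* and *Fbxo31*. Number 20 of the mock group had 876.7, 1481 and 431.2 TPM, and number 3 of the rFibcd1 group 659.5, 1209 and 457.5 TPM. *Trim55* lay below its group medians in these libraries, at 26.48 and 32.66 TPM against 43.0 and 44.82 TPM.

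With rFibcd1, no member was called between CAC and NONCAC diaphragm by limma, where 9.11% of genes were called (78.3% of them higher, and 44.9% under median-ratio scaling). Dunn tests called no member and no other gene. An unadjusted limma p under 0.05 was held by 1 member and by 3350 of 13426 genes. *Fbxo31* was 58.88 to 92.66 TPM (median 75.4) in NONCAC and 59.16 to 457.5 TPM (median 81.22) in CAC libraries, a log2 difference of 0.40 (95% interval -0.11 to 0.91). *Fbxo32* differed by -0.24 (-0.90 to 0.42) and *Trim63* by 0.19 (-0.56 to 0.94). Without library 3 these were 0.15 for *Fbxo31*, -0.53 for *Fbxo32* and -0.14 for *Trim63*. The lowest unadjusted p was that of *Trim54* (0.39, limma p = 0.0117, adjusted p = 0.0852). This does not show that rFibcd1 removed a difference: the interaction of melanoma and injection was -0.72 for *Fbxo31* (95% interval -1.45 to 0.01, limma adjusted p = 0.579), -0.80 for *Fbxo32* (adjusted p = 0.631) and -0.77 for *Trim63* (adjusted p = 0.676). No member and 0.0223% of genes were called in it, and no member had an unadjusted p under 0.05.

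Set against each other directly, CAC diaphragms with and without rFibcd1 held no called member by limma, at a background of 0.0447% of genes called. Dunn tests called no member and no other gene. An unadjusted limma p under 0.05 was held by 1 member and by 1412 of 13426 genes. *Fbxo31* was lower with rFibcd1 by a log2 difference of -0.67 (SE 0.253, limma p = 0.0122, adjusted p = 0.348), with medians of 81.22 and 135.5 TPM and overlapping groups. Without rFibcd1 library 3 it was -0.91 (limma adjusted p = 0.0269). *Fbxo32* differed by -0.49 (95% interval -1.15 to 0.16) and *Trim63* by -0.27 (-1.01 to 0.48), and *Trim63* changed sign to 0.06 without mock library 20. *Fbxo32* was -0.22 without that library and -0.78 without rFibcd1 library 3.

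In NONCAC mice, *Fbxo30* was 9.138 to 16.56 TPM (median 12.25) with rFibcd1 and 6.832 to 8.886 TPM (median 8.462) without. The groups did not overlap, which held for 0.41% of all genes. Its log2 difference was 0.53 (SE 0.162, limma p = 0.00212, adjusted p = 0.164). None of the 9 was called by limma or by Dunn tests, at a limma background of 0.417% of genes called (83.9% of them higher, and 52.7% under median-ratio scaling). An unadjusted limma p under 0.05 was held by 1 member and by 2332 of 13426 genes. The shared spread of the 4 diaphragm groups includes the wide CAC groups. In a fit of the 2 NONCAC groups alone 19.6% of genes were called in either direction. This fit called 5 members, all higher with rFibcd1: *Fbxo30* (0.53, limma adjusted p = 0.00107), *Trim63* (0.51, adjusted p = 0.00943), *Fbxo32* (0.30, adjusted p = 0.0282), *Traf6* (0.20, adjusted p = 0.0336) and *Nedd4* (0.20, adjusted p = 0.0488). Median-ratio scaling was run in the fit of the 4 diaphragm groups. There the differences were 0.385, 0.341, 0.138, 0.06 and 0.036 in the same order, and limma called none of them. An index of the circadian clock (mean log2 level of *Arntl* and *Npas2* minus that of *Dbp*, *Per3* and *Ciart*) was -1.39 to 2.2 in the rFibcd1 group and -4.64 to -1.24 in the mock group. With this index as a term in the fit of the 4 diaphragm groups *Fbxo30* was 0.41 and was not called by limma. The groups' ranges of the index overlapped only between -1.39 and -1.24.

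Between muscles of NONCAC mice, levels of *Fbxo32* were lowest in TA, at 60.5 ± 19.9 TPM (SD, n = 5), and higher in mock diaphragm, at 107.4 ± 12.8 TPM (n = 9), and SOL, at 169.4 ± 12.1 TPM (n = 5). The log2 difference of TA from SOL was -1.53 (limma adjusted p = 0.00262) and of diaphragm from TA 0.87 (adjusted p = 0.0434). In TA against SOL 4 members were called, all lower in TA, where 69.5% of genes were called and the median over all genes was -0.47 (-0.09 under median-ratio scaling): *Fbxo32*, *Nedd4* (-0.53), *Fbxo30* (-0.42) and *Trim54* (-0.35). Under median-ratio scaling *Fbxo32* remained called (-1.01, limma adjusted p = 0.0473), *Nedd4* was at -0.02 (adjusted p = 0.806), *Fbxo30* and *Trim54* changed sign without a call (0.03 and 0.17), and *Traf6* was called higher in TA (0.43, adjusted p = 4.04e-07). The block by number called 5 (76.7% of genes), adding *Fbxo40* (-0.27, limma adjusted p = 0.00829).

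In diaphragm against TA 3 members were called, where 72.5% of genes were and the median over all genes was 0.44 (0.12 under median-ratio scaling): *Fbxo32*, *Fbxo30* (0.47) and *Nedd4* (0.30). None of these calls held under median-ratio scaling (*Fbxo32* 0.46, *Fbxo30* 0.11 and *Nedd4* -0.11), where *Fbxo40* (-0.70), *Trim54* (-0.57), *Traf6* (-0.42) and *Trim55* (-0.39) were called lower in the diaphragm. The block called 6 (74.5% of genes), adding *Fbxo31* (0.63), *Fbxo40* (-0.40) and *Trim54* (-0.17). In diaphragm against SOL 2 were called, at 38.8% of genes: *Trim54* (-0.51, limma adjusted p = 5.98e-06) and *Fbxo40* (-0.55, adjusted p = 0.0014). With the mitochondrial genes left out both stayed called (-0.34 and -0.39), and *Fbxo31* was also called, higher in the diaphragm (0.75, limma adjusted p = 0.0146). More members were called under median-ratio scaling as well.

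Ordered over the 8 groups, *Fbxo32* ran from NONCAC TA (60.5 TPM) to CAC TA (365 TPM), *Trim63* from NONCAC mock diaphragm (95.7 TPM) to CAC TA (596 TPM) and *Fbxo31* from NONCAC SOL (48.2 TPM) to CAC TA (214 TPM). *Trim54* and *Fbxo40* were highest in CAC SOL, at 535.9 and 248.8 TPM. *Trim55* stayed between group means of 39.4 and 51.9 TPM and *Traf6* between 5.03 and 6.38 TPM. Of the 28 pairs of groups, a fit of all 59 libraries called 16 for *Trim54*, 13 for *Fbxo31*, 11 each for *Fbxo32* and *Fbxo40*, 9 for *Fbxo30*, 8 for *Trim63*, 7 for *Nedd4*, 2 for *Trim55* and 1 for *Traf6*. No share over all genes was computed for these pairs. In that fit of 59 libraries, which ignores the shared numbers, neighbours in a gene's order differed for *Fbxo32* between NONCAC TA and NONCAC mock diaphragm (limma adjusted p = 0.0478). They also differed for *Fbxo40* between NONCAC and CAC SOL (adjusted p = 0.00604), and for no other pair of any member. The fit of mock diaphragm, TA and SOL also called *Nedd4* between NONCAC TA and NONCAC mock diaphragm (0.30, limma adjusted p = 0.00592). With the number as a block further neighbours were called, as given above.

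Within groups the members fell into sets that varied together. The following correlations are over deviations of log2(TPM + 1) from the 8 group means in 59 libraries, some of which share a number across muscles, and they are descriptions. Of 36 pairs, 4 had an r of at least 0.7: *Fbxo32* with *Trim63* (0.90), *Nedd4* with *Traf6* (0.88), *Fbxo31* with *Trim63* (0.85) and *Fbxo32* with *Fbxo31* (0.75). Over the 30 CAC libraries *Fbxo31* and *Trim63* had an r of 0.88 and over the 29 NONCAC libraries 0.11. *Fbxo32* and *Trim63* had 0.92 and 0.50, *Fbxo32* and *Fbxo31* 0.77 and 0.47, and *Nedd4* and *Traf6* 0.89 and 0.79. *Trim55* varied against *Fbxo31* (-0.56; -0.65 over CAC and -0.14 over NONCAC libraries). With *Trim63* its r was -0.49, with -0.63 over CAC and 0.42 over NONCAC libraries. Without the 2 libraries farthest from the median of *Fbxo32*, its r with *Trim63* was 0.79 and its r with *Fbxo31* 0.55.

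**Figure D4:**
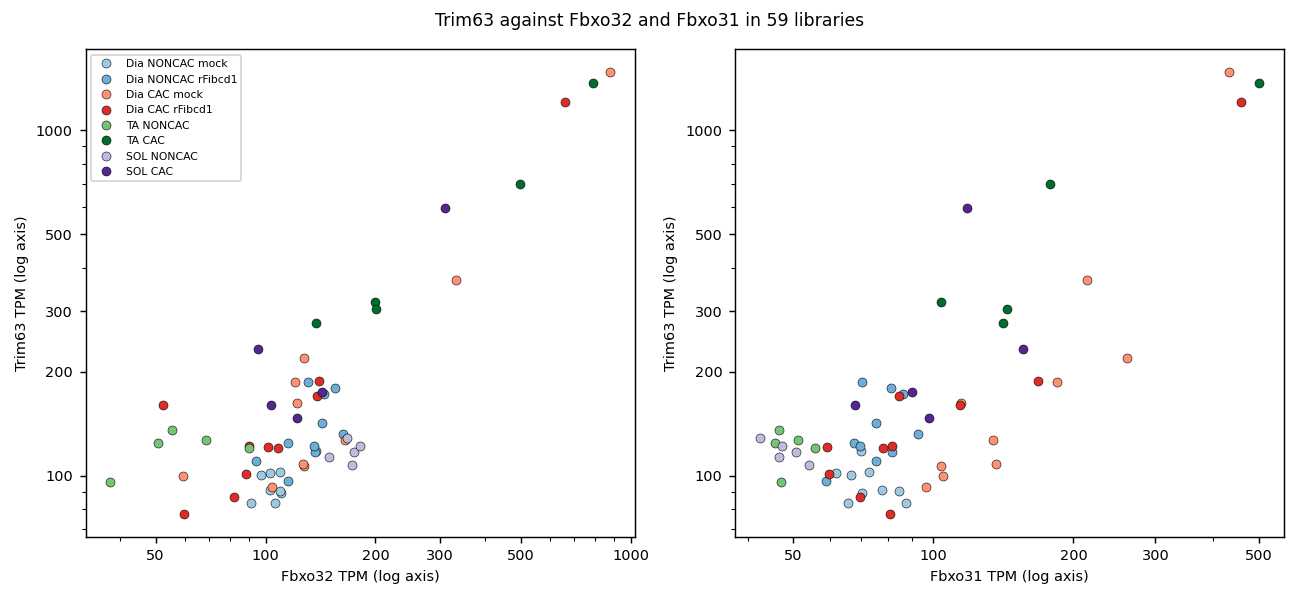
*Trim63* against *Fbxo32* (left) and against *Fbxo31* (right) in TPM on log axes, 1 point for each of the 59 libraries, colored by group. The 3 points at the top right are the CAC mock diaphragm, CAC rFibcd1 diaphragm and CAC TA libraries with 1481, 1209 and 1376 TPM of *Trim63*.

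Among 8762 genes with a mean of at least 5 TPM, levels much like those of *Fbxo32* over the 59 libraries were found for *Klhl38* (r = 0.90), an adapter of cullin ligases, *Trim63* (0.83), *Calcoco1* and *Pnrc1* (0.80 each). By deviations from the group means they were *Trim63* (0.90), *Klhl38* (0.89), *Eif3j2*, *Klf15* (0.81 each) and *Fam134b* (0.79). For *Trim63* the levels most alike were those of *Eif1* (0.88), *Eif3j2*, *Eif4g3* (0.85 each), *Anapc16* and *Cdpf1* (0.84 each), and the deviations were those of *Fbxo32* (0.90), *Eif3j2* (0.89), the autophagy genes *Map1lc3b* (0.86) and *Sqstm1* (0.85), and *Fbxo31* (0.85).

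The rest of the pathway is given by list, as counts called in each direction. Over all genes, 56.4% were called higher in TA, 17.5% in SOL, 30.9% in mock diaphragm and 7.14% in rFibcd1 diaphragm, and the lists were not tested against these shares. Of 31 proteasome genes 29 rose in CAC TA, 28 in CAC SOL, 23 in mock and 26 in rFibcd1 diaphragm, and none fell. Their median log2 differences were 0.71, 0.48, 0.34 and 0.34. *Psma7*, a subunit of the core, rose by 1.35 in TA (limma adjusted p = 0.00167) and 0.80 in SOL (adjusted p = 0.000311). Of 7 SCF core and neddylation genes 6 rose in TA, 4 in SOL, 4 in mock and 2 in rFibcd1 diaphragm, with *Cul1*, the scaffold, at 0.68, 0.26 and 0.28.

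Of 16 genes for ubiquitin, E1 and E2 enzymes, 8 rose in TA (a lower share than over all genes), 7 in SOL (1 fell) and 9 in mock diaphragm (4 with rFibcd1), with the ubiquitin gene *Ubb* at 1.14, 0.48 and 0.49. Of 11 deubiquitinases 5 rose and 1 fell in TA and in SOL, and 3 rose in mock diaphragm, which is 45.5% in TA and 27.3% in mock diaphragm and thus below the shares over all genes there. Among other muscle ligases, 15 of 24 rose in TA, 6 of 25 rose and 2 fell in SOL, and 7 of 26 rose in mock diaphragm. These shares of 62.5, 24.0 and 26.9% lay near those over all genes, and so did the list's median differences of 0.40, 0.09 and 0.18 against 0.41, 0.09 and 0.20. *Trim72*, a membrane repair protein, was among them in all 3 (1.32, 0.94 and 0.78). *Klhl38* rose by 1.68 in TA (limma adjusted p = 0.00169), and its effect was larger there than in SOL by 1.73 (adjusted p = 0.00529), as for *Fbxo32*.

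Of 12 glucocorticoid targets 9 rose in TA, 7 in SOL and 9 in mock diaphragm, and none fell. With rFibcd1, 3 rose in the diaphragm. *Cebpd*, a transcription factor, rose by 2.96, 2.10 and 2.25, and *Mt2*, a metallothionein, by 7.51, 4.76 and 4.22. Of the cytokine and NF-kB list 15 of 20 rose in TA, 12 of 20 in SOL and 13 of 21 in mock diaphragm, and none fell. With rFibcd1, 6 of 21 rose. *Socs3*, a feedback inhibitor of cytokine signaling, rose by 3.78, 2.62 and 2.45.

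FoxO and autophagy targets had 19 of 22 higher and 1 lower in TA, 7 higher and 2 lower in SOL, 13 higher and 1 lower in mock diaphragm, and 1 higher and 1 lower in rFibcd1 diaphragm. Of these 22, 8 had a larger effect in TA than in SOL, as did 19.1% of all genes. The other lists with the highest such counts were myostatin, activin and BMP (8 of 20), other muscle ligases (8 of 26, with 1 larger in SOL) and cytokine and NF-kB (6 of 20). These counts were not computed under median-ratio scaling. *Eif4ebp1*, a repressor of translation, rose by 2.62 in TA, with an effect larger than in SOL by 1.66 (limma adjusted p = 0.0206). Of the myostatin, activin and BMP list 11 of 17 rose and 2 fell in TA, 1 of 18 rose and 2 fell in SOL, and 6 of 20 rose in mock diaphragm (30.0%, near all genes). *Nog*, an inhibitor of BMP, rose by 2.25 in TA and 1.04 in mock diaphragm, and its effect was larger in TA than in SOL by 2.38 (adjusted p = 1.68e-07).

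Of 15 genes of insulin, IGF1 and AKT signaling 6 rose in TA (40.0%, below all genes), 4 in SOL and 7 in mock diaphragm. Substrates and partners of the ligases had 12 of 27 higher and 5 lower in TA, 6 higher and 1 lower in SOL, and 8 higher and 1 lower in mock diaphragm. The shares of these higher in TA (44.4%) and mock diaphragm (29.6%) were below those over all genes. *Des*, the intermediate filament protein desmin, rose by 1.66, 1.66 and 1.05. Genes of the denervation response had 5 of 7 higher in TA, 3 of 8 higher and 1 lower in SOL, and 5 of 9 higher in mock diaphragm. *Myog*, a myogenic factor, rose in TA (1.15) and SOL (1.38), and *Gadd45a*, a stress response gene, in TA (1.39) and mock diaphragm (1.00). With rFibcd1, the diaphragm had 1 gene higher and 1 lower of 26 other muscle ligases, and 1 of 11 deubiquitinases, 2 of 20 myostatin, activin and BMP genes, 1 of 15 insulin pathway genes, 1 of 27 substrates and partners and 0 of 9 denervation genes higher, beside 7.14% of all genes.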

How the data were processed

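RNA of diaphragm, TA and soleus was sequenced and the authors deposited 1 table of gene values in TPM (length-corrected abundances that sum to the same total in each library), without counts, so depth per library is unknown and no counting interval was given. Per the labels reads were mapped to mm10; the sources used here name different library kits and sequencers, so the strandedness of counting is unclear. All 59 columns were mapped to the 8 labelled groups by name. Genes with at least 1 TPM in as many samples as the smallest group of a fit were tested by limma (3.58.1, R 4.3.3; moderated with a mean trend) on log2(TPM + 1), in 1 fit for the diaphragm, 1 each for TA and SOL, and 1 for mock diaphragm, TA and SOL together. All 9 members passed. P-values were two-sided and adjusted by the Benjamini-Hochberg method over all genes of a fit, and a gene was called at an adjusted p under 0.05. Folds on this scale understate changes of low genes. The procedure was tested on simulated data. The labels name no cultures or cages, so p-values measure the spread between samples.

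The members and the 12 gene lists were chosen with earlier results of these data known. The 9 members were always named, and from each list up to 3 called genes with the largest change per comparison. Some genes that this rule or the ranking by likeness selects are not reported here. Column numbers recur between muscles: same-numbered libraries deviated together between diaphragm and TA in 10 of 10 pairs (lowest r 0.13) and between TA and SOL in 10 of 10 (lowest r 0.20), each over 0.1. Alternatives were another pseudocount (0.1), filters, scalings, Dunn tests, the study's thresholds, other groups per fit, the number as a block, the *Pcna-ps2* split or clock index as a term, and each library left out. Correlations over the CAC, the NONCAC and all but 2 libraries, and coefficients of variation without 1 library, were added after seeing the data. Figures and summaries used Python 3.11.15 with NumPy 2.4.6 and SciPy 1.17.1.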

Additional observations from a re-analysis of the deposited data

Results flagged for a closer look

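Of 72 groups of member values, 15 held a library whose gap to its nearest neighbour was large for its group by Dixon's criterion. Chance alone meets it in about 1 of 20 groups of independent, normally distributed values. The TPM were not put on a log scale here and the same libraries recur over genes, so this rate need not apply. In CAC rFibcd1 diaphragm, number 3 had 659.5 TPM of *Fbxo32* (next 140.5), 457.5 TPM of *Fbxo31* (next 167.9) and 1209 TPM of *Trim63* (next 188.0). In CAC mock diaphragm, number 20 had 876.7 TPM of *Fbxo32* (next 332.7), 431.2 TPM of *Fbxo31* (next 260.5) and 1481 TPM of *Trim63* (next 368.9). In CAC soleus, number 7 had 310.2 TPM of *Fbxo32* and 598.2 TPM of *Trim63*, and number 8 had 579.3 TPM of *Trim54*. In CAC TA, number 8 had 502.3 TPM of *Fbxo31* and 178.0 TPM of *Nedd4*.

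The other 4 values were 730.8 TPM of *Trim54* in CAC rFibcd1 diaphragm number 11, 161.6 TPM of *Trim54* (the lowest) and 7.864 TPM of *Traf6* in NONCAC rFibcd1 number 56, and 137.1 TPM of *Fbxo32* in NONCAC mock number 68. CAC rFibcd1 number 11 was also the lowest of its group for *Fbxo32* (52.49 TPM), *Fbxo30* (3.591 TPM), *Trim55* (26.9 TPM), *Nedd4* (42.47 TPM) and *Traf6* (2.361 TPM).

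The effect of the cachectic melanoma differed between muscles for 3 genes by the limma interaction. It was larger in TA than in SOL by 2.59 for *Fbxo32* and by 0.50 for *Nedd4*, smaller by -0.60 for *Fbxo40*, and for *Fbxo32* it was smaller in mock diaphragm than in TA by -1.76. Under median-ratio scaling the *Nedd4* difference was 0.15 (limma adjusted p = 0.262) and that of *Fbxo32* between diaphragm and TA -1.54 (adjusted p = 0.0871), neither of them called.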

How the results depend on the processing

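Of 117 member differences, the alternatives are counted here for the 70 that were in the 3 melanoma comparisons without injection, had an unadjusted p under 0.05, or were of *Fbxo32*, *Trim63* or *Fbxo31* in another comparison than one of levels. Apart from fits that left out 1 library, these kept their direction and side of the threshold under 527 alternatives, lost the call under 38, gained it under 40 and changed sign under 22, and 89 counts of called members were within 1.5 times the value reported and 29 were not. The cause was not tested. The unknown depth of TPM, the 1 xenograft per arm and wide CAC groups limit what these samples can show.

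Median-ratio scaling turned 28 of the 117 differences. The 13 among the 70 were *Fbxo30* (-0.20), *Fbxo40* (-0.16) and *Trim54* (-0.012) in mock diaphragm, *Fbxo31* under rFibcd1 in NONCAC mice (-0.11), *Fbxo30* (-0.11) and *Traf6* (-0.18) in TA, *Nedd4* in SOL (-0.004), *Traf6* between TA and SOL (-0.041), *Fbxo31* (-0.069) and *Trim63* (-0.085) between diaphragm and SOL, and the levels of *Fbxo30* (0.033) and *Trim54* (0.17) in TA against SOL and of *Nedd4* in diaphragm against TA (-0.11). Of the other 15, called under that scaling were the levels of *Traf6* in TA against SOL (0.43) and of *Trim55* in diaphragm against TA (-0.39). Called members became 0 for the diaphragm-TA effect, 2 for the diaphragm-SOL effect, 2 for TA-SOL levels and 4 for diaphragm-SOL levels. Without mitochondrial genes, *Fbxo30* (-0.21), *Fbxo40* (-0.17) and *Trim54* (-0.019) in mock diaphragm, *Fbxo31* under rFibcd1 in NONCAC mice (-0.04) and *Nedd4* in SOL (-0.13) turned, and called members were 2, 1 and 5 for the diaphragm-TA effect, the diaphragm-SOL effect and diaphragm-TA levels. *Fbxo30* in mock diaphragm was -0.18 with the *Pcna-ps2* split, -0.006 in libraries above it alone and -0.021 with the clock index.

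Called members in mock diaphragm were 4 by Dunn tests, 5 in a fit of 2 groups, 0 in libraries above the split, 1 with the split as a term, 1 without a filter and 1 by the study's thresholds. Where no count over all genes is given below for a setting, its count of members cannot be told apart from a general change in calls. This holds for Dunn tests and the fit of 2 groups in mock diaphragm. Those thresholds gave 3 in TA, 1 in SOL and 1 for rFibcd1 in CAC mice, and Dunn tests 1 for diaphragm-TA levels. The fit of 2 groups gave 5 for rFibcd1 in NONCAC mice, the split as a term 1 for rFibcd1 diaphragm, no filter 0 for the diaphragm-TA effect, and a fit of all 59 samples 1 for rFibcd1 diaphragm, 0 and 1 for the diaphragm-TA and TA-SOL effects and 2 for TA-SOL levels.

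With the number as a replicate block, called members were 6 for the TA-SOL effect, 4 for the diaphragm-TA effect and 6 for diaphragm-TA levels. Between diaphragm and SOL 7 of 10 same-numbered pairs had an r over 0.1 and 7 of 10 libraries correlated best with their own number. Between TA and SOL 8 of 10 did so. Because not all pairs were over 0.1, the numbers were not taken to pair diaphragm with SOL. Numbers that pair diaphragm with TA and TA with SOL would pair these as well, so the pairing is uncertain. The replicate block called 1 for the diaphragm-SOL effect (*Fbxo40*, -0.45) and 6 for levels. It turned the effect on *Fbxo31* to -0.058 without a call. Within a muscle no paired analysis was possible because CAC and NONCAC mice share no number.

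Leaving out each library in turn gave 1 to 4 called members in mock diaphragm, 0 to 1 in rFibcd1 diaphragm, 0 to 1 for rFibcd1 in CAC and in NONCAC mice, 1 to 3 for the TA-SOL effect, 0 to 3 for the diaphragm-TA effect, 2 to 5 for diaphragm-TA and 2 to 4 for diaphragm-SOL levels. Values that changed sign ran from -0.14 to 0.30 (*Trim63*, rFibcd1 diaphragm), -0.60 to 0.064 (*Trim63*, rFibcd1 in CAC mice), -0.072 to 0.073 (*Fbxo30*, mock diaphragm), -0.062 to 0.031 (*Fbxo40*, TA), -0.11 to 0.11 (*Fbxo30*, SOL), -0.073 to 0.016 (*Traf6*, SOL), -0.13 to 0.064 (*Trim55*, SOL), -0.11 to 0.20 (*Fbxo31*, diaphragm-SOL effect) and -0.30 to 0.38 (*Trim63*, diaphragm-SOL effect).

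Counts over all genes moved as well. Mock diaphragm had 4501 called genes, 2219 under median-ratio scaling, 1942 without mitochondrial genes, 2059 with the split, 805 above it and 289 by the study's thresholds. rFibcd1 diaphragm had 1223, 335 in a fit of 2 groups, 695 with the clock index, 109 by the study's thresholds and 0 by Dunn tests and above the split. rFibcd1 in CAC mice had 6, 30 under median-ratio scaling, 789 above the split, 95 by the study's thresholds, 18 with the split, 10 in a fit of all samples, 1 without mitochondrial genes and with the clock index, and 0 by Dunn tests and in a fit of 2 groups. rFibcd1 in NONCAC mice had 56, 2453 in a fit of 2 groups, 158 by the study's thresholds, 86 in a fit of all samples, 36 with the split, 14 by Dunn tests and 0 with the clock index and above the split. The interaction had 3, 1 without a filter and 0 with the split, above it, with the clock index and without mitochondrial genes. By the study's thresholds TA had 848 of 6680 and SOL 416 of 2999. The TA-SOL effect had 2750, 1345 under median-ratio scaling, 4790 without mitochondrial genes, 1308 in a fit of all samples and 5677 with the block. The diaphragm-TA effect had 681, 2438 without mitochondrial genes, 352 in a fit of all samples and 2193 with the block. The diaphragm-SOL effect had 340, 168 at a mean of at least 5 TPM, 157 in a fit of all samples and 918 with the block. Levels had 9385 for TA-SOL and 4990 by Dunn tests, 9790 for diaphragm-TA and 6013 at a mean of at least 5 TPM, and 5243 for diaphragm-SOL, 3379 at that mean and 1178 by Dunn tests.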

Other observations

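*Trim55* fell into separate ranges within the NONCAC diaphragm groups, which was noticed after the values were seen and was not tested. In the rFibcd1 group the libraries numbered 46 to 50 had 55.61 to 60.07 TPM and those numbered 56 to 60 had 39.43 to 45.36 TPM. In the mock group the libraries numbered 61 to 65 had 40.12 to 46.98 TPM and those numbered 66, 67, 68 and 70 had 57.32, 47.05, 54.21 and 56.13 TPM. Numbers 66, 68 and 70 are the 3 mock libraries above 2 TPM of *Pcna-ps2*, and 67 is below it. In the rFibcd1 group 3 of the 5 libraries in each range were above 2 TPM of *Pcna-ps2*. The labels do not say what the numbers stand for.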
